A study of Rattus norvegicus with 36 samples.

Results

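The ion channel subunit genes of iAM-1 cells were taken by name from the deposited expression table: every gene whose symbol begins with Kcn, Cacn or Clcn, or with Scn and a digit, apart from Kcnj3, Kcnj5, Kcnj11 and Cacna1g. The rule found 51 of the 12943 rat genes listed, and 45 of the 51 had at least 1 CPM in at least 4 libraries and entered the tests. The iAM-1 line consists of atrial muscle cells of newborn Wistar rats, immortalised with a large T antigen that is made only while doxycycline is present. RNA was sequenced on 9 days with 4 libraries each. D0 is the proliferating culture in 100 ng/ml doxycycline, D1, D2, D3 and D9 are days of differentiation without it, and D10, D11, D12 and D18 are days of dedifferentiation with 100 ng/ml doxycycline added again. All groups are 1 cell line carrying the same construct. Whether the 4 libraries of a day stem from different cultures is not labelled. The spread behind each p-value is that among these libraries and may be technical.

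Ion channels are membrane proteins that let selected ions cross, and their order of opening shapes the cardiac action potential. In atrial muscle, sodium channels carry the upstroke, L-type calcium channels carry the plateau current and start contraction, and several potassium channels repolarise the cell or hold its resting potential. A channel consists of pore-forming subunits, with accessory subunits that set its surface level or gating. Some potassium subunits, the modifiers, conduct only when joined to a pore subunit of another family. Several members of the Clcn family act on intracellular membranes as chloride-proton exchangers.

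The 45 tested genes comprised 2 sodium, 11 calcium, 6 chloride, 11 voltage-gated potassium, 3 potassium modifier, 4 potassium accessory, 2 inward rectifier, 3 2-pore and 3 calcium-activated potassium genes. The deposited values, called CPM, are whole reads plus an offset of 0.5 read over an effective library size. A listed value is therefore never 0, and a gene without reads stands at 0.0105 to 0.0361 CPM depending on the library. Libraries held 14.9 to 43.1 M recovered reads (median 18.5 M), and 1 read was worth 0.0211 to 0.0721 CPM. Of the 51 genes, 10 had a library with 0 reads, 5 of them among the 45 tested. Fold changes below are limma estimates on log2(CPM + 0.5), a scale that understates the change of low genes, with Benjamini-Hochberg adjustment over all genes tested and a call at an adjusted p under 0.05.

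Several libraries stood apart from the others of their day. The mean absolute deviation from the day's median over all tested genes was log2 0.281 in library 1 of D10, against 0.0834 to 0.102 in the other 3, and 0.314 in library 1 of D12, against 0.213 to 0.228. In these 2 libraries Mb, which encodes myoglobin, measured 206 and 202 CPM, while the other D10 and D12 libraries lay between 4.83 and 23.2 CPM. Library 2 of D9 deviated by 0.194 and library 4 of D18 by 0.152. The median SD of a gene within a day was log2 0.252 at D12, the widest day, and 0.0728 at D1, the narrowest, and the fit over all days uses 1 spread for a gene on every day.

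The large T antigen followed its label, with 2732 to 3098 CPM at D0, 27.6 to 33.9 CPM at D9 and 4578 to 5474 CPM at D18. All 8 cardiac muscle markers were listed, and their summed level was 10739 to 11814 CPM at D0, 76851 to 84348 CPM at D9 and 17164 to 21338 CPM at D18. For fibroblasts, 7 of 10 markers were listed, with a sum of 588 to 630 CPM at D0, 40.3 to 47.4 CPM at D9 and 170 to 185 CPM at D18. The 2 listed endothelial markers of 5, Kdr and Vwf, summed to 16.4 to 21.8 CPM at D0, 249 to 287 CPM at D9 and 186 to 208 CPM at D18. The 6 smooth muscle markers summed to 9565 to 9877 CPM at D0, 18855 to 22115 CPM at D9 and 7759 to 8939 CPM at D18. The Schwann cell and neuron markers, 2 of 10 listed, summed to 3.47 to 7.22 CPM over all days. At D9 against D0, 3 of the 6 smooth muscle markers rose, 2 fell and 1 was not called. Of the 2 endothelial markers 1 rose and 1 was not called, and of the 2 Schwann cell and neuron markers 1 rose and 1 fell. The 2 listed macrophage markers of 4 summed to 5.10 to 6.39 CPM at D0, 0.648 to 1.05 CPM at D9 and 0.660 to 1.13 CPM at D18, and both fell at D9 and at D18 against D0. The part of these markers in the channel results was not tested, and markers without a row were not analysed here. In such bulk samples, fewer cells of a type and less RNA per cell cannot be told apart.

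Levels can be compared between genes per length, in the deposited TPM. Cacna2d2, an auxiliary alpha2-delta subunit of calcium channels, ranked 1 of 51 on D0, D9 and D18, at 124 ± 3.18, 287 ± 34.7 and 251 ± 5.85 TPM (SD, n = 4). Kcnh2, the pore of the rapid delayed rectifier, ranked 2 on these days at 98.0 ± 5.36, 212 ± 16.7 and 171 ± 15.9 TPM. Kcng2, a modifier of voltage-gated potassium channels, ranked 48 at D0 with 0.0752 ± 0.0561 TPM, 8 at D9 with 36.2 ± 4.68 TPM and 4 at D18 with 74.4 ± 7.07 TPM. Neighbours in this order often lie within their spread. Clcn7 (43.0 ± 3.08), Clcn3 (40.3 ± 3.54) and Kcng2 (36.2 ± 4.68) lay within 1 SD of a neighbour at D9. All 51 genes together summed to 796 to 825 TPM at D0, 1105 to 1329 TPM at D9, 698 to 951 TPM at D12 and 1149 to 1205 TPM at D18.

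**Figure D1:**
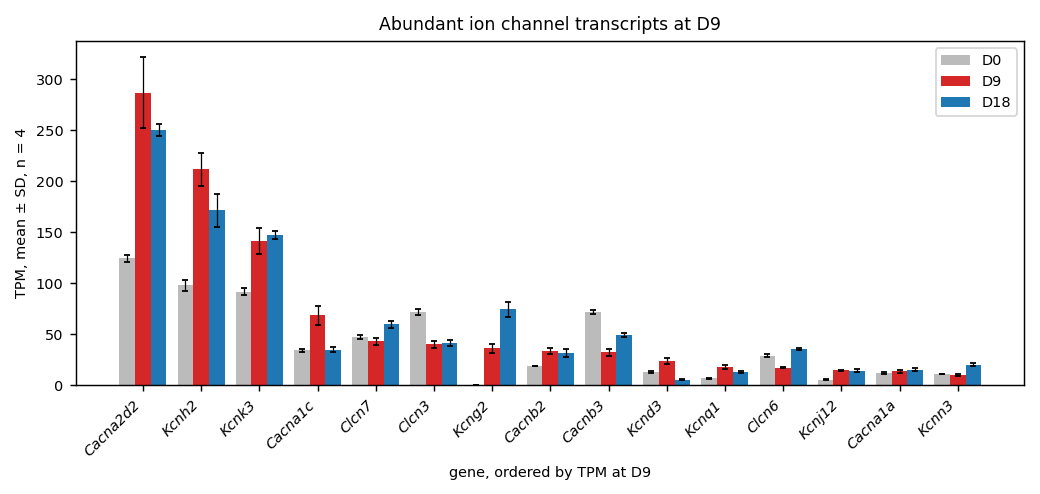
Bars show the mean TPM (a level corrected for transcript length) at D0, D9 and D18 of 15 abundant ion channel genes, ordered along the horizontal axis by their D9 level, with error bars of 1 SD over 4 libraries. Cacna2d2 was highest on all 3 days, and Kcng2 had 0.0752 TPM at D0, 36.2 TPM at D9 and 74.4 TPM at D18.

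Between D9 and D0, the whole of differentiation, 22 of the 45 tested channel genes rose, 16 fell and 7 were not called. Over all 12492 rows tested, 34.4% rose and 37.0% fell. The median log2 fold change was 0.20 for the channel genes and -0.02 for all genes. The genes that rose included 6 of 11 calcium, 6 of 11 voltage-gated potassium, 3 of 6 chloride, 2 of 3 modifier and 2 of 3 2-pore potassium genes. Among the 4 accessory potassium genes 1 rose and 3 fell, and of the 3 calcium-activated potassium genes 1 fell and none rose. In the TPM table, where the median of all genes was -0.34, 19 channel genes rose and 17 fell, and over all genes 2518 rose and 6767 fell.

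**Figure D2:**
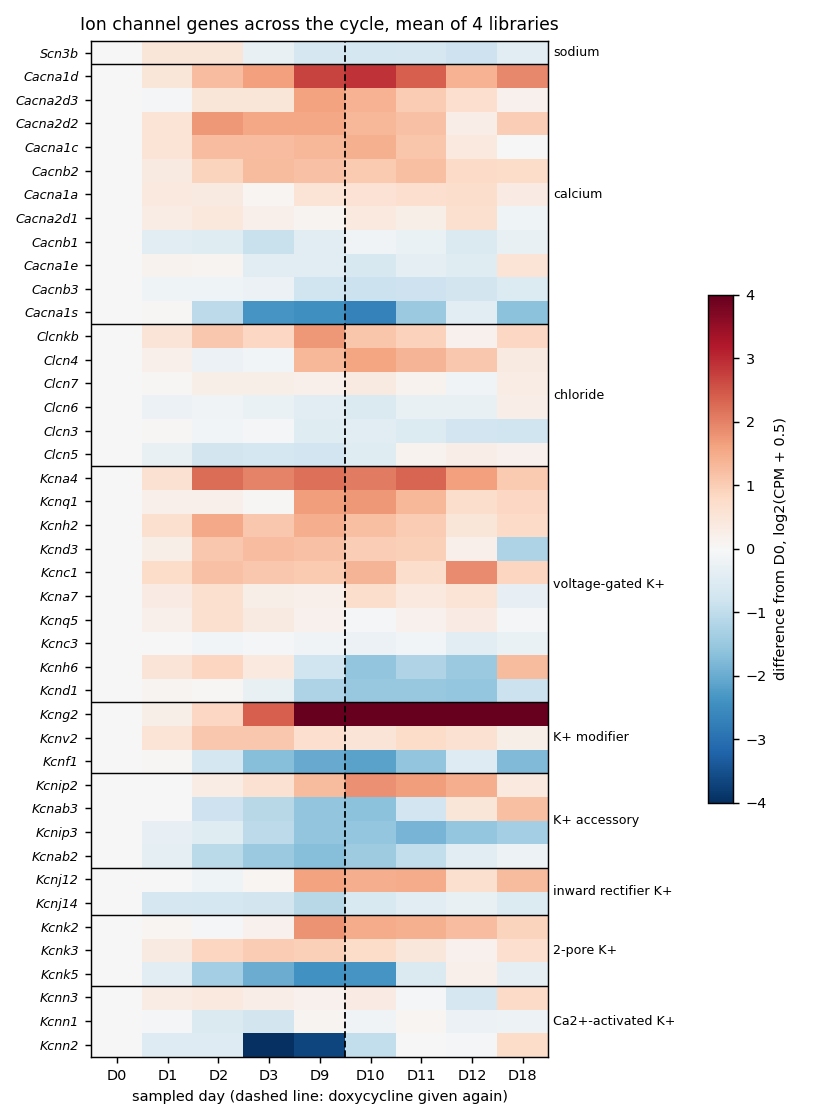
Colours show the difference of each day's mean log2(CPM + 0.5) (4 libraries) from D0 for 43 of the 45 tested genes, in rows by family and in columns by sampled day. The colour scale ends at 4 in either direction, and Kcnn2 at D3 and Kcng2 from D9 on exceeded it (Kcng2 log2 5.99 at D9 and 6.67 at D18).

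Of the sodium channel genes, Scn3b, an auxiliary beta subunit, stayed at or under 1.21 CPM in every library, and 2 of its D10 libraries had 0 reads.

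Among the pore subunits of calcium channels, the L-type genes moved in opposite directions. Cacna1c, the main L-type pore of heart muscle, measured 115, 116, 109 and 116 CPM at D0, 311, 241, 285 and 310 CPM at D9 and 116, 123, 109 and 107 CPM at D18. D9 stood above both other days, whose libraries overlapped. Its log2 fold change was 1.32 (SE 0.10, adjusted p = 4.3e-14) at D9 against D0 and -1.32 (SE 0.10, adjusted p = 4.8e-14) at D18 against D9, while D18 against D0 was not called (log2 -0.0048, adjusted p = 0.97). Cacna1d, an L-type pore of atrial and pacemaker cells, had 0.575, 0.242, 0.0911 and 0.188 CPM at D0, 4.84, 4.37, 3.86 and 4.52 CPM at D9 and 2.04, 2.82, 2.65 and 2.11 CPM at D18. It rose by log2 2.69 (SE 0.20) at D9 and remained log2 1.93 (SE 0.20) above D0 at D18, with no overlap between the 3 days. Cacna1s, the L-type pore best known from skeletal muscle, had 31.5, 33.1, 29.3 and 30.9 CPM at D0, 6.93, 4.29, 5.37 and 4.71 CPM at D9 and 9.39, 9.84, 10.2 and 9.23 CPM at D18. It fell by 2.46 on the log2 scale at D9 (SE 0.16, adjusted p = 2.1e-15) and at D18 lay between D9 and D0. Cacna1a, a P/Q-type pore known mostly from neurons, measured 59.9 to 69.3 CPM at D9 and 38.7 to 48.0 CPM at D0.

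The 300 bases around the start of Cacna1s are shown because this L-type gene fell while the other 2 rose. They are from RefSeq (GRCr8, chr13:50045418-50045717, plus strand), from 250 bases before to 50 after the annotated start. Capitals mark the E-box letters CAGCTG and, elsewhere in the window, the TATA box letters TATAAA, searched on both strands.
Cacna1s: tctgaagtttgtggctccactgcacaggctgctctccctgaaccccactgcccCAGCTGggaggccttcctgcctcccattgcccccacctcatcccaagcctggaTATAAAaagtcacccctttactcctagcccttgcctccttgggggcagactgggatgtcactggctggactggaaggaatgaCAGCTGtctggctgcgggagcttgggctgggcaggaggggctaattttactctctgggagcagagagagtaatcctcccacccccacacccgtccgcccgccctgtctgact
CAGCTG occurs in 15.1% and TATAAA in 14.3% of the 27457 promoters of the table.

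The accessory calcium channel genes did not move as 1 group. Cacnb2, the beta subunit that predominates in heart, had 17.7, 17.5, 17.6 and 17.9 CPM at D0, 40.0, 37.8, 42.3 and 42.5 CPM at D9 and 28.5, 27.8, 28.2 and 34.7 CPM at D18. It rose by log2 1.18 (SE 0.09, adjusted p = 2.9e-13) at D9, and its D18 libraries lay between the other days. In TPM its fall at D18 against D9 was not called (log2 -0.09, adjusted p = 0.44). Cacna2d2 had 240, 252, 243 and 243 CPM at D0, 736, 616, 740 and 752 CPM at D9 and 469, 497, 487 and 490 CPM at D18, again with no overlap. Cacna2d3, another alpha2-delta subunit, was low. It had 0.0639 to 0.152 CPM at D0, 0.685 to 2.19 CPM at D9 and 0.117 to 0.257 CPM at D18, and rose by log2 1.59 (SE 0.22) at D9. This alpha2-delta gene held 10 reads in all at D0 and 14 at D18. Its rise at D9 was log2 1.09 with a pseudocount of 1, 2.76 with 0.1 and 3.88 in edgeR. Cacna2d1, the third such gene, was not called at D9 (log2 0.10, adjusted p = 0.55), but quantile normalization called it higher (log2 0.36, adjusted p = 0.041) and its sign was negative in the TPM table (log2 -0.20). Cacnb3, a beta subunit widely expressed outside heart, ran the other way with 38.6 to 45.1 CPM at D9 and 73.0 to 77.3 CPM at D0.

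The chloride family split evenly at D9, with 3 genes up and 3 down. Clcn3, an exchanger of endosomal membranes, had 83.4, 76.2, 81.5 and 87.8 CPM at D9, against 111, 114, 116 and 122 CPM at D0, with no overlap. It fell by 0.49 on the log2 scale at D9 (SE 0.06, adjusted p = 2.0e-08) and by 0.32 at D18 against D9 (SE 0.06, adjusted p = 4.3e-05), although the TPM table gave 0.04 for that second comparison. Clcn4, a related endosomal exchanger, had 10.4 to 11.6 CPM at D9, against 3.05 to 4.95 CPM at D0. Clcn7, the lysosomal exchanger, had 52.0 to 55.2 CPM at D0, 58.2 to 63.5 CPM at D9 and 61.8 to 71.2 CPM at D18.

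Among the voltage-gated potassium pores, Kcnh2, Kcnq1, Kcnd3 and Kcna4 rose at D9, and Kcnd1 and Kcnh6 fell. Kcnh2 had 170, 161, 176 and 152 CPM at D0, 472, 419, 452 and 448 CPM at D9 and 277, 308, 306 and 243 CPM at D18, without overlap, and rose by log2 1.44 (SE 0.13, adjusted p = 9.5e-12) at D9. In TPM its fall at D18 against D9 was not called (log2 -0.30, adjusted p = 0.059). Kcnq1, the pore of the slow delayed rectifier, had 11.0, 12.0, 10.8 and 12.1 CPM at D0, 38.1, 32.7, 40.5 and 38.1 CPM at D9 and 18.8, 21.9, 20.6 and 22.2 CPM at D18, and rose by log2 1.66 (SE 0.21, adjusted p = 1.9e-08). The kit kept strand but the counting is not stated to have used it, and Kcnq1 overlaps the annotated gene LOC120099963, so reads of the 2 may not be told apart. That limit may hold for 28 of the 51 genes, among them Kcng2, Kcnn2 and Kcnd3, whose spans overlap another gene in the GRCr8 annotation. Only spans were compared, not exons or strand.

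Kcnd3, a pore of the fast transient outward current, had 35.3, 40.5, 37.2 and 36.4 CPM at D0, 89.3, 73.1, 89.0 and 89.2 CPM at D9 and 15.1, 14.5, 14.7 and 19.0 CPM at D18. It was highest at D9 and lowest at D18, with no overlap between the 3 days. The log2 fold change was 1.17 (SE 0.09, adjusted p = 1.1e-13) at D9 against D0, -2.39 (SE 0.09, adjusted p = 3.2e-22) at D18 against D9 and -1.22 (SE 0.09, adjusted p = 3.1e-13) at D18 against D0. Its paralog Kcnd1 went the other way, with 2.34 to 4.65 CPM at D9 and 7.59 to 8.90 CPM at D0 (log2 -1.22, SE 0.19). Kcna4, a slowly recovering transient outward pore, had 1.34, 2.69, 1.73 and 2.24 CPM at D0, 10.1, 10.9, 10.5 and 11.9 CPM at D9 and 4.51, 4.82, 4.02 and 5.06 CPM at D18, and rose by log2 2.21 (SE 0.19, adjusted p = 2.3e-12) at D9. Kcnh6, a relative of Kcnh2, had 3.26, 2.85, 3.25 and 1.95 CPM at D0, 1.57, 2.06, 0.945 and 1.23 CPM at D9 and 7.23, 7.79, 7.82 and 6.74 CPM at D18. Its D18 libraries stood above all others of the 3 days, whereas D9 and D0 overlapped (log2 -0.78, SE 0.26, adjusted p = 0.0090). With quantile normalization the call at D9 was lost (log2 -0.35, adjusted p = 0.21).

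Kcng2 had the largest fold change of the tested channel genes at D9 and at D18 against D0. This modifier subunit is silent alone and joins pore subunits of another family. It had 0.0639, 0.116, 0.0304 and 0.0209 CPM at D0, 32.6, 43.8, 33.7 and 30.7 CPM at D9 and 57.7, 59.1, 60.8 and 47.4 CPM at D18. The D9 values stand for 467, 607, 624 and 661 reads, and the D0 values for 1, 5, 0 and 0 reads. D0 was lowest and D18 highest, with no overlap between the 3 days. The log2 fold change was 5.99 (SE 0.27, adjusted p = 1.4e-19) for D9 against D0 and 6.67 (SE 0.27, adjusted p = 2.0e-19) for D18 against D0. With so few D0 reads its size depends on the pseudocount, and it was 7.83 at D9 with 0.1 and 5.08 with 1. From the summed reads per effective library, D9 was 641-fold above D0, with an exact 95% interval of 294 to 1748 that covers counting error only. Of the other modifiers, Kcnv2 had 11.1 to 15.7 CPM at D9 and 7.69 to 9.65 CPM at D0, and Kcnf1 had 1.85, 1.26, 1.54 and 1.83 CPM at D9, against 8.80, 7.45, 8.41 and 7.39 CPM at D0 (log2 -2.01, SE 0.35, adjusted p = 5.6e-06).

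The starts of Kcng2 (GRCr8, chr18:76083639-76083938, minus strand) and Kcna4 (GRCr8, chr3:114215086-114215385, plus strand) are shown because both genes rose strongly at D9 and their RefSeq windows hold the same 6 letters. Capitals mark AGGTGT, or ACACCT on the other strand (a T-box half-site).
Kcng2: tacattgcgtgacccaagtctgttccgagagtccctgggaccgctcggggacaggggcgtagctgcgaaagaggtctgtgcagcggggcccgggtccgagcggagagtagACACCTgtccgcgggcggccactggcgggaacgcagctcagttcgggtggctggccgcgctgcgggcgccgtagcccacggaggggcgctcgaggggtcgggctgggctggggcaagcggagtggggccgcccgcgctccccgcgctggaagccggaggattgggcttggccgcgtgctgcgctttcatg
Kcna4: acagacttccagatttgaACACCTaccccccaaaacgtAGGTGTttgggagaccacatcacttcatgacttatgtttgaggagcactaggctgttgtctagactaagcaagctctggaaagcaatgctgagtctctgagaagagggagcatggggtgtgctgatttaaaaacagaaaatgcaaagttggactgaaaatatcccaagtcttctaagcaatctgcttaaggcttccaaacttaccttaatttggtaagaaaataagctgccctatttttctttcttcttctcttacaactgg
These letters occur in 4 of the 34 channel genes with a promoter in the table (11.8%) and in 13.4% of all 27457 promoters. Their presence is therefore a description only. The other carriers are Clcn4 and Kcnq5. Clcn4 had 2.28 ± 0.466 TPM at D0 and 4.84 ± 0.338 TPM at D9 (SD, n = 4). Kcnq5 had 1.05 ± 0.142 TPM at D0 and 0.974 ± 0.229 TPM at D9. The letters AGATAA, known as a binding motif of GATA factors, were in 5 of the 34 and in 11.3% of all promoters, and the E-box letters given above were in 7 of the 34. Kcnn2 is among these 7, and its window appears to lie in coding sequence of another transcript. CTANNNNTAG, a MEF2 motif, was in none of the 34 windows and in 3.83% of all.

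**Figure D3:**
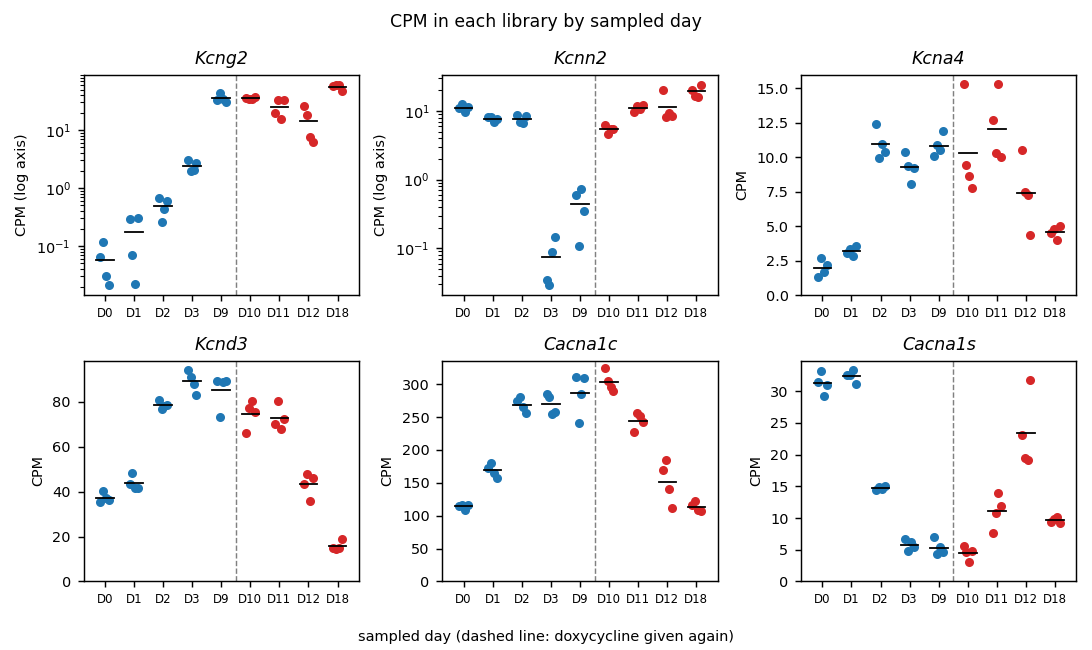
Points show the CPM of each library by sampled day for Kcng2, Kcnn2, Kcna4, Kcnd3, Cacna1c and Cacna1s, with a bar at the mean of 4 libraries, blue before and red after doxycycline was given again. The axes of Kcng2 and Kcnn2 are logarithmic, and the lowest points there stand for 0 to 2 reads. From D9 on, every library had more Kcng2 than any library of D0 to D3, while Kcnd3 at D18 lay below its D0 level.

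The accessory potassium genes fell at D9 with 1 exception. Kcnab3, a beta subunit of Kv1 channels, had 3.77, 2.96, 3.61 and 3.79 CPM at D0, 1.57, 0.758, 0.891 and 0.441 CPM at D9 and 9.65, 9.78, 8.20 and 7.60 CPM at D18, so that D18 was highest, without overlap. Its log2 fold change was -1.56 (SE 0.25, adjusted p = 1.1e-06) at D9 against D0 and 2.77 (SE 0.25, adjusted p = 9.5e-12) at D18 against D9. Kcnab2, another beta subunit, had 0.533 to 0.830 CPM at D9 and 3.13 to 3.61 CPM at D0. Kcnip3, a calcium-binding Kv4 partner, had 0.0361 to 0.567 CPM at D9 and 1.49 to 1.98 CPM at D0. Kcnip2, the Kv4 partner that supports the transient outward current in heart, rose by log2 1.25 (SE 0.32, adjusted p = 8.7e-04). It was low, with 0.941, 0.325, 0.999 and 1.18 CPM at D9, and its D0 libraries held 2, 0, 0 and 1 reads. The size of its change therefore varied with the setting, and was log2 0.80 with a pseudocount of 1, 2.58 with 0.1 and 4.67 in edgeR.

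The inward rectifiers and 2-pore channels, which hold the resting potential, each held genes moving both ways. Kcnj12, a pore of the classical inward rectifier, had 5.13, 5.76, 5.50 and 5.13 CPM at D0, 17.8, 18.2, 16.2 and 18.1 CPM at D9 and 12.3, 15.3, 14.5 and 12.3 CPM at D18, and rose by log2 1.62 (SE 0.19, adjusted p = 2.5e-09) at D9. Its relative Kcnj14 had 2.96 to 3.50 CPM at D9 and 6.97 to 8.52 CPM at D0. Kcnk3, an acid-sensitive background channel of atrial cells, had 183, 181, 183 and 166 CPM at D0, 363, 316, 344 and 359 CPM at D9 and 273, 292, 293 and 267 CPM at D18, and rose by log2 0.95 (SE 0.09, adjusted p = 3.3e-11). The mechanosensitive channel Kcnk2 had 2.19 to 3.21 CPM at D9 and 0.230 to 0.575 CPM at D0 (log2 1.80, SE 0.24). Kcnk5, an alkaline-activated relative, had 3.64, 2.35, 2.70 and 2.87 CPM at D0, 0.105, 0.253, 0.0810 and 0.0696 CPM at D9 and 2.62, 2.08, 2.89 and 1.20 CPM at D18, and fell by 2.43 on the log2 scale (SE 0.25, adjusted p = 2.1e-10) at D9. Its D9 libraries held 6 reads in all, against 308 at D0, and edgeR gave log2 -4.92.

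Kcnn2, the calcium-activated channel SK2 of atrial cells, had the largest fall at D9 on the log2(CPM + 0.5) scale, although edgeR on recovered reads gave a larger one for Kcnk5 (log2 -4.92) than for Kcnn2 (log2 -4.72). It had 11.0, 12.7, 9.63 and 11.6 CPM at D0, 0.592, 0.108, 0.729 and 0.348 CPM at D9 and 20.5, 16.7, 16.1 and 24.3 CPM at D18. D9 was lowest and D18 highest, with no overlap between the 3 days. The log2 fold change was -3.68 (SE 0.20, adjusted p = 2.2e-17) at D9 against D0, 4.43 (SE 0.20, adjusted p = 1.2e-19) at D18 against D9 and 0.75 (SE 0.20, adjusted p = 0.0022) at D18 against D0. Its relatives Kcnn1 and Kcnn3 had 8.67 to 11.6 and 13.6 to 15.2 CPM at D9, and 8.18 to 10.7 and 12.7 to 13.2 CPM at D0.

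**Figure D4:**
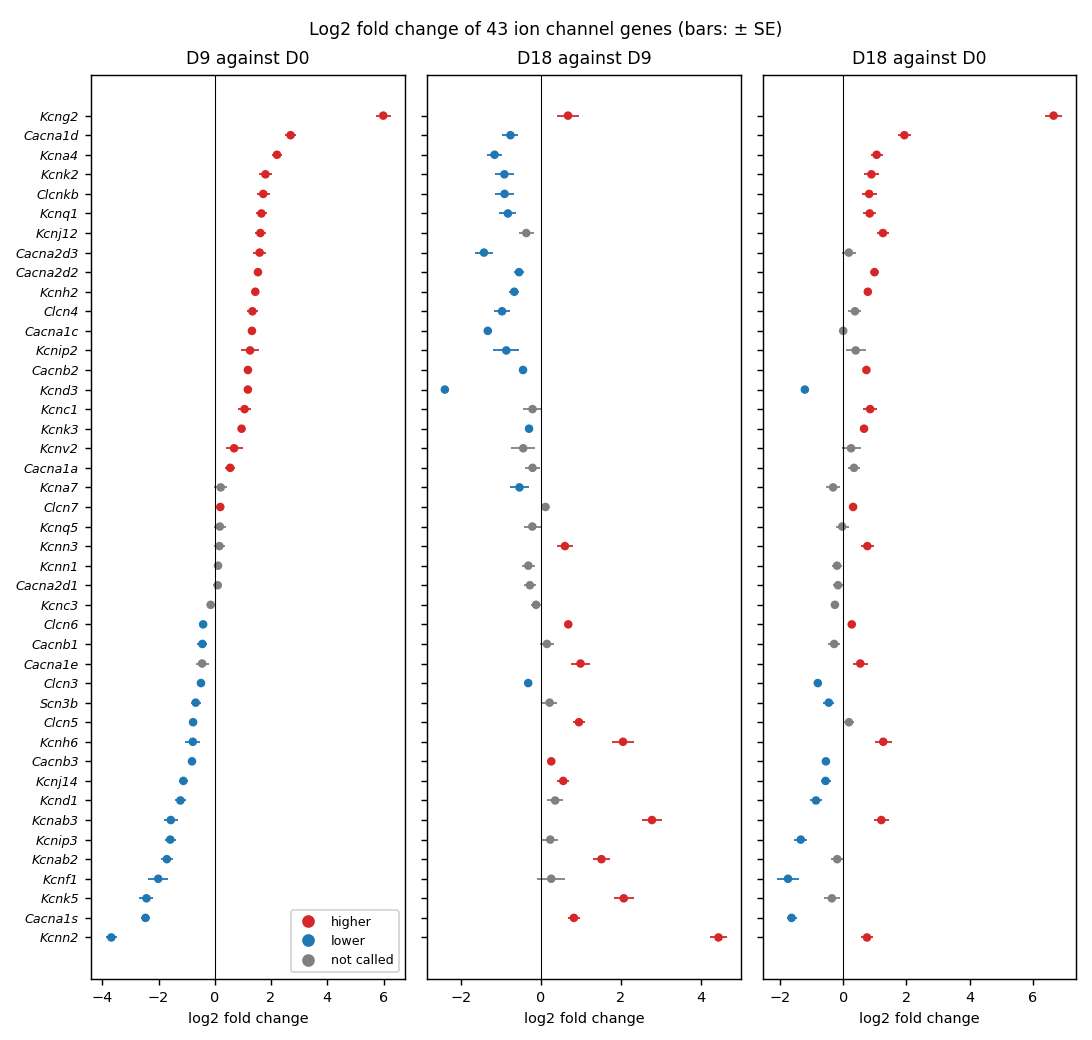
Points show the log2 fold change of 43 of the 45 tested genes, on log2(CPM + 0.5), with bars of 1 SE, for D9 against D0, D18 against D9 and D18 against D0, in the order of the first comparison. Red is changed and higher, blue changed and lower, grey not called. The 3 comparisons share libraries.

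Between D18 and D9, the whole of dedifferentiation, 13 of the 45 genes rose, 17 fell and 15 were not called, against 33.6% up and 32.5% down over all rows tested. The median was -0.21 for the channel genes and -0.00090 for all genes. Quantile normalization, which moved the median of all genes to -0.13, gave 9 up and 23 down, and the TPM table, with a median of 0.34, gave 16 up and 10 down. Over all genes, quantile normalization gave 3388 up and 5036 down, and TPM 6713 up and 2014 down. The channel genes that fell on the log2(CPM + 0.5) scale included 5 of 11 calcium and 5 of 11 voltage-gated potassium genes. Among those that fell were Kcnd3, Cacna2d3, Cacna1c and Kcna4, by 2.39, 1.42, 1.32 and 1.16 on the log2 scale. For Cacna2d3, with few reads at D18, the log2 fold change was -2.30 with a pseudocount of 0.1 and -3.03 in edgeR. On the log2(CPM + 0.5) scale, the 5 genes that rose most were Kcnn2 (log2 4.43), Kcnab3 (log2 2.77), Kcnk5 (log2 2.07), Kcnh6 (log2 2.05) and Kcnab2 (log2 1.51). The size for Kcnk5 was 3.34 with a pseudocount of 0.1 and 4.53 in edgeR. Kcng2 stayed far above D0, and its call above D9 (log2 0.68, SE 0.27, adjusted p = 0.029) was lost with a pseudocount of 0.1 (adjusted p = 0.087), with quantile normalization (adjusted p = 0.054) and when any of libraries 1, 3 and 4 of D9 or 1, 2 and 3 of D18 was left out (adjusted p 0.053 to 0.070), with a log2 fold change of 0.58 to 0.68 in these fits. The call held in the TPM table (log2 1.03, adjusted p = 0.0018) and with only D18 and D9 in the fit (adjusted p = 1.1e-04).

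Between D18 and D0, both in doxycycline, 21 of the 45 genes were higher, 9 lower and 15 not called, against 28.8% higher and 23.2% lower over all rows. The median was 0.31 for the channel genes and 0.06 for all genes. Higher at D18 were 6 of 11 voltage-gated potassium, 4 of 11 calcium and 3 of 6 chloride genes. The highest were Kcng2 (log2 6.67), Cacna1d (log2 1.93), Kcnh6 (log2 1.26), Kcnj12 (log2 1.26) and Kcnab3 (log2 1.20). The lowest were Kcnf1 (log2 -1.76), Cacna1s (log2 -1.64), Kcnip3 (log2 -1.35), Kcnd3 (log2 -1.22) and Kcnd1 (log2 -0.87). Because these 3 comparisons share their libraries, their values stand side by side here and are not independent of each other.

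The steps between sampled days placed these changes in time. At D1 against D0, 7 genes rose and 1 fell, against 7.91% and 4.39% of all rows. Kcnh2 had 265, 245, 263 and 251 CPM at D1, against 170, 161, 176 and 152 CPM at D0 (log2 0.64, SE 0.13), and Kcnj14 had 3.52 to 5.33 CPM at D1, against 6.97 to 8.52 CPM at D0. The call on Kcnc1 (log2 0.74, adjusted p = 0.030) was lost with a pseudocount of 1, quantile normalization and TPM. It was also lost with 5 of the 8 left-out libraries and with the replicate block (adjusted p = 0.082). That block leaves out the D1 library without a number. At D2 against D1, 11 rose and 6 fell, against 21.6% and 20.0%. Kcna4 had 12.4, 9.95, 11.0 and 10.4 CPM at D2, against 2.85 to 3.56 CPM at D1 (log2 1.62, SE 0.19), and Cacna2d2 had 796 to 852 CPM at D2, against 345 to 369 CPM at D1 (log2 1.20, SE 0.13). Cacna1s had 14.4 to 15.0 CPM at D2 and 31.1 to 33.3 CPM at D1. Scaling moved these splits: TPM gave 3 up and 3 down at D1 and 8 up and 9 down at D2, and quantile normalization gave 6 up and 3 down at D1. Over all genes, TPM gave 569 up and 959 down at D1 and 1105 up and 4357 down at D2, and quantile normalization 861 up and 810 down at D1.

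At D3 against D2, 2 genes rose and 4 fell, against 2.92% and 9.72% of all rows, and quantile normalization gave 3 up and 3 down. Over all genes, quantile normalization gave 691 up and 903 down. Kcnn2 had 0.0349, 0.0288, 0.0871 and 0.147 CPM at D3, against 8.80, 7.02, 6.72 and 8.48 CPM at D2 (log2 -3.84, SE 0.20, adjusted p = 1.5e-15). The D3 libraries held 0, 0, 1 and 2 reads of it and the D2 libraries 123, 148, 99 and 134, so that D2 was 168-fold above D3 from summed reads (exact 95% interval 57.3 to 819, counting error only). Kcng2 had 3.10, 1.93, 2.06 and 2.68 CPM at D3, against 0.677, 0.260, 0.439 and 0.599 CPM at D2 (log2 1.57, SE 0.27), which stand for 33 to 45 reads at D3 and 5 to 9 reads at D2. At D9 against D3, 13 rose and 6 fell, against 18.4% and 25.0%. Kcng2 rose by a further log2 3.61 (SE 0.27) and Kcnk2 by log2 1.63 (SE 0.24), whereas Kcnh6 fell by 1.17 (SE 0.26) and Kcnd1 by 0.94 (SE 0.19) on the log2 scale. Kcnq1, with 10.7 to 13.7 CPM at D3, and Kcnj12, with 5.32 to 6.79 CPM at D3, still overlapped their D0 libraries on that day.

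At D10 against D9, the first day back in doxycycline, 1 of the 45 genes was called, against 2.4% of all rows up and 1.26% down. It was Kcnn2, with 6.22, 4.58, 5.46 and 5.53 CPM at D10, against 0.592, 0.108, 0.729 and 0.348 CPM at D9 (log2 2.70, SE 0.20, adjusted p = 1.0e-11). It was also called with every alternative run. Of the 45 genes, 9 had an unadjusted p under 0.05 in the main fit. No count of all rows at that threshold is given here, so the 9 cannot be set against the other genes. At D11 against D10, 6 rose and 6 fell, against 15.7% and 9.84%, while TPM gave 6 up and 2 down. Over all genes, TPM gave 2001 up and 879 down. Cacna1s had 7.58, 10.8, 13.9 and 11.9 CPM at D11, against 3.01 to 5.61 CPM at D10 (log2 1.20, SE 0.16), and Kcnk5 had 1.04 to 2.10 CPM at D11, against 0.0722 to 0.207 CPM at D10 (log2 1.78, SE 0.25).

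At D12 against D11, 7 rose and 17 fell, against 18.7% and 21.3%. Cacna1d fell by 1.00 (SE 0.20) on the log2 scale. Kcnab3 had 4.23 to 5.97 CPM at D12, against 0.967 to 3.07 CPM at D11 (log2 1.25, SE 0.25). The count of 24 changed genes was 15 without library 4 of D12. The count over all rows in that fit is not given here, so whether the drop was limited to the channel genes is not known. TPM gave 7 up and 11 down at D12. Over all genes, TPM gave 3269 up and 1642 down, against 2337 up and 2658 down in the main fit. At D18 against D12, 15 rose and 10 fell, against 25.5% and 23.5%. Kcnh6 had 6.74 to 7.82 CPM at D18, against 0.360 to 1.59 CPM at D12 (log2 2.76, SE 0.26), and Kcng2 had 47.4 to 60.8 CPM at D18, against 6.33 to 25.9 CPM at D12 (log2 2.13, SE 0.27). Kcnd3 fell by a further 1.42 (SE 0.09). With only the 2 days compared in the fit, the counts of changed genes were 27 at D1, 28 at D2, 18 at D3, 5 at D11, 8 at D12 and 16 at D18 against D12, where the fit over all days gave 8, 17, 6, 12, 24 and 25. The counts over all rows moved in the same direction, to 5267, 7928, 4195, 1897, 1155 and 3581 in the fit of 2 days, against 1537, 5191, 1579, 3192, 4995 and 6116 over all days.

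After D9 the libraries of a day parted for several of these genes. Library 1 of D10 had 427 CPM of Cacna2d2 and 55.3 CPM of Kcnq1, against 672 to 717 and 33.5 to 35.9 CPM in the other 3. Library 1 of D12 had 40.8 CPM of Kcnq1, 36.5 CPM of Kcnv2 and 20.3 CPM of Kcnn2, against 12.0 to 21.2, 7.64 to 13.5 and 8.13 to 9.41 CPM in the others. Kcnf1 had 9.83 and 16.7 CPM in libraries 3 and 4 of D12, and 1.99 and 2.35 CPM in libraries 1 and 2. Without the first libraries of D10 and D12, the counts of changed genes were 2 at D10 against D9, 17 at D11 against D10, 29 at D12 against D11 and 30 at D18 against D12, where they were 1, 12, 24 and 25 with them. Over all rows these counts were 610, 3969, 6402 and 6870 without the 2 libraries, against 458, 3192, 4995 and 6116 with them, so the increase was not limited to the channel genes.

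**Figure D5:**
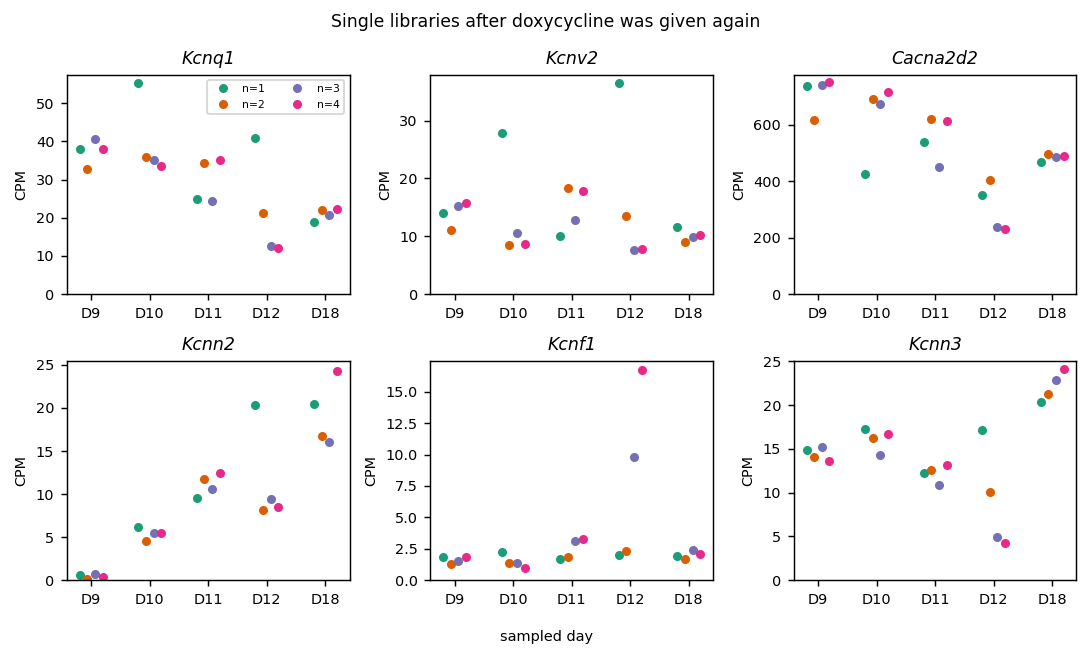
Points show the CPM of single libraries from D9 to D18 for Kcnq1, Kcnv2, Cacna2d2, Kcnn2, Kcnf1 and Kcnn3, with 1 colour for each library number. Library 1 of D10 and of D12 stands apart for Kcnq1 and Kcnv2, and libraries 3 and 4 of D12 alone are high for Kcnf1.

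Proteins that bind or regulate these channels and other channel families were read from the same fit. Of 29 genes of channel partners, 22 rows with 21 symbols were tested (Calm2 has 2 rows), and at D9 against D0 12 rose, 5 fell and 5 were not called, with a median log2 fold change of 0.43. At D18 against D9 4 rose, 13 fell and 5 were not called (median -0.47). Of 44 genes of other channels, 37 were tested, and at D9 against D0 17 rose, 15 fell and 5 were not called (median -0.02), while at D18 against D9 13 rose, 16 fell and 8 were not called. At D18 against D0, 4 partner rows were higher, 6 lower and 12 not called, and 13 genes of other channels were higher, 13 lower and 11 not called. The shares of all rows stand above, 34.4% up and 37.0% down at D9 against D0, 33.6% and 32.5% at D18 against D9, and 28.8% and 23.2% at D18 against D0, with medians of -0.02, -0.00090 and 0.06. A list of 23 cardiac channel genes included 9 that were not analysed here.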

How the data were processed

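Per the labels' protocols, 36 poly(A) libraries were made by a strand-keeping method and read from both ends. The authors deposited a CPM table and a TPM table, per the file headers; the submitters' processing notes name edgeR 3.26.8 and Rnor_6.0, with no role for either. Which aligner and counter were used is not given in the sources used here. Deposited CPM values are a signal rather than true CPM, because their columns sum to between 868992 and about 1136460. In every library all values (100%) up to 20 steps were whole multiples of the column minimum within 0.1, and 100% of those up to 200 steps were odd multiples. A value is thus reads plus 0.5, times a scale, and the minimum is 0 reads, which holds for 3793 values in 760 rows. The deposited TPM values keep that offset, so neither table lists a 0. The planned design had called the table CPM, and the planned test was kept.

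A limma model (version 3.58.1, R 4.3.3, trended eBayes) was fitted to log2(CPM + 0.5) of 12492 rows, 5 of them construct rows, that reached 1 CPM or more in 4 or more libraries. A mean per day leaves 27 residual degrees of freedom. Adjustment was Benjamini-Hochberg within each of 11 comparisons. Alternatives were pseudocounts of 0.1 and 1, no filter, quantile normalization, median-of-ratios factors, TPM, only the 2 days compared, a replicate block, edgeR 4.0.16 (quasi-likelihood) on recovered reads, each library left out, and, chosen after seeing the data, D10 and D12 without library 1. The fit was tested on simulated data. Tests are printed for the 5 highest and 5 lowest called genes of the 3 main comparisons, the 2 at each end of a step, and 23 cardiac channel genes; levels may be given for any member. Members and lists were chosen with earlier results of these data known. A single D1 library matched no label number exactly and carries none, so the replicate block left it out. The closest pair of libraries of a day had a mean chi-square per gene of 1.93, above sampling noise, so none was counted as a copy. Promoters are from RefSeq (GRCr8), found for 34 of 51 genes. Values of 2 members are not reported here, although both stay in the fits and counts. No per-sample column was left unused (0).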

Additional observations from a re-analysis of the deposited data

Results flagged for a closer look

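In groups of 4 libraries, the gap of the highest or lowest library to its nearest neighbour passed Dixon's 95% critical value in 19 of 243 groups, 27 genes on 9 days. Chance alone gives about 1 in 20 groups. No cause was tested for any of them.

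At D10 all 4 such values were in library 1. It was lowest for Cacna2d2 (427 CPM, others 672 to 717), and highest for Cacna2d1 (17.5 CPM, others 11.0 to 11.6), Kcnq1 (55.3 CPM, others 33.5 to 35.9) and Kcnc1 (3.82 CPM, others 1.47 to 1.76). At D12 library 1 was highest for Kcnh6 (1.59 CPM, others 0.360 to 0.532) and Kcnn2 (20.3 CPM, others 8.13 to 9.41). At D11 library 1 was lowest for Kcnk5 (1.04 CPM, others 1.97 to 2.10).

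At D9 library 2 was lowest for Cacna2d2 (616 CPM, others 736 to 752) and Kcnd3 (73.1 CPM, others 89.0 to 89.3). At D18 library 4 was highest for Cacnb2 (34.7 CPM, others 27.8 to 28.5) and Kcnd3 (19.0 CPM, others 14.5 to 15.1). These 2 libraries also deviated most from their day over all genes.

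At D0 the values apart were Cacna1c lowest at 109 CPM, Kcnk3 lowest at 166 CPM, Kcnip3 highest at 1.98 CPM and Kcnj14 highest at 8.52 CPM, spread over libraries 3, 4, 1 and 4. At D1 Cacna2d3 was highest at 0.173 CPM in library 1. At D2 Clcn3 was lowest at 100 CPM and Kcnh2 highest at 502 CPM in library 2, and Kcnf1 lowest at 3.69 CPM in library 4.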

How the results depend on the processing

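The 3 main counts of changed channel genes (38, 30 and 30 for D9 against D0, D18 against D9 and D18 against D0) stayed within 1.5 times under every alternative. Leaving out 1 library at a time gave 35 to 39, 27 to 30 and 28 to 30, and for the steps 6 to 8 (D1), 14 to 17 (D2), 5 to 7 (D3), 16 to 18 (D9 against D3), 1 to 2 (D10), 8 to 12 (D11), 15 to 27 (D12, lowest without library 4 of D12) and 22 to 27 (D18 against D12). With only the 2 days compared, the steps gave 27 (D1), 28 (D2), 18 (D3), 5 (D11), 8 (D12) and 16 (D18 against D12); by construction this fit uses the spread of those days alone. At D10 against D9 the TPM table gave 2, as did leaving out library 4 of D10 or, chosen after seeing the data, library 1 of both D10 and D12. edgeR on recovered reads gave 37, 29 and 28 for the main comparisons. The replicate block, which left out the D1 library without a number, gave 38, 31 and 30. Over the 103 gene values 1 call changed in that fit (Kcnc1 at D1, adjusted p = 0.082). Leaving out the same library without a block also lost this call (adjusted p = 0.091). Between the days of each comparison, same-numbered libraries did not deviate together throughout: the correlation across genes ran from -0.32 to 0.27 over 42 pairs. Every pair was above 0.1 in 0 of 11 comparisons. D10 and D12 were not paired in this check, although library 1 of each stood apart, with 206 and 202 CPM of Mb. Signs turned in TPM for Cacna2d1 (D9 against D0 -0.20, D18 against D9 0.0628), Clcn3 (0.0403) and Kcnk3 (0.0617) at D18 against D9, and Cacna1c at D18 against D0 (0.0191, and -0.043 to 0.0237 without a single library). They turned with quantile normalization at D18 against D9 for Kcnd1 (-0.0277), Kcnf1 (-0.17) and Kcnip3 (-0.19). The cause was not tested. At D18 against D9 the median of all genes was -0.00090 in the main fit, -0.13 with quantile normalization and 0.34 in TPM. At D18 against D0 it was 0.06 in the main fit and 0.08 in TPM. Reads were few for Kcng2, Kcnip2, Cacna1d and Cacna2d3 at D0, Cacna2d3 at D18, Kcnk5 at D9 and Kcnn2 at D3. This limits how well the size of their fold changes is known.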

Other observations

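The 6 channel genes with too little signal for the tests were measured as follows. Kcnn4, an intermediate-conductance calcium-activated channel, had 0.0865, 0.0253, 1.12 and 4.29 CPM in libraries 1 to 4 of D12, which stand for 1, 0, 23 and 77 reads, and 0 reads in all 4 D11 libraries. Kcnt1, a sodium-activated potassium channel, reached 1.21 CPM at D0 and held 2, 0, 0 and 0 reads at D9. Kcnmb4, an accessory subunit of large-conductance calcium-activated channels, reached 1.24 CPM in library 4 of D12. Scn1a, a sodium channel pore known mostly from neurons, reached 1.53 CPM in library 1 of D12, Cacng7 reached 1.13 CPM at D0 and Kcnrg reached 1.62 CPM at D9.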
